A study of Rattus norvegicus with 8 samples.

Results

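Pericytes and vascular smooth muscle cells are the mural cells that wrap blood vessels, and 10 of their marker genes were followed here in rat diaphragm, the main muscle of inspiration. The genes were listed by symbol as widely used markers, 6 for pericytes (Rgs5, Abcc9, Kcnj8, Cspg4, Pdgfrb and Notch3) and 4 for smooth muscle (Acta2, Myh11, Cnn1 and Tagln), out of 17055 rows of the count table. Each matched 1 row, and all 10 were among the 10522 genes with enough counts to be tested. The libraries came from 8 Sprague-Dawley rats, 1 library per animal, 16 weeks after surgery by the labels, which do not give their sex. In 4 MI animals a myocardial infarction had been caused by tying off the left anterior descending coronary artery through an opened chest, under isoflurane and mechanical ventilation. The 4 Sham animals had the same operation and anaesthesia without the tie. MI animals are numbered 1 to 4 and Sham animals 5 to 8.

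Pericytes sit on capillaries within the basement membrane and signal to the endothelium, while smooth muscle cells form the contractile coat of arterioles, arteries and veins. Platelet-derived growth factor B from endothelial cells recruits both through the receptor Pdgfrb, and Notch ligands on the endothelium maintain them through Notch3. In skeletal muscle these cells set blood flow to the fibres, and they take up a small share of the tissue, so in whole-muscle RNA fewer such cells and less RNA per cell cannot be told apart.

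Per library there were 7941402 to 24967251 counts, and a floor of 3 counts came to 0.116 to 0.369 CPM, counts scaled to the size of the library, which covers counting error only. The deepest library was Sham animal 7 and the shallowest Sham animal 8. Fibre genes marked the samples as skeletal muscle, with 10 of 11 listed fibre markers tested. Their summed level was 111357 to 146996 CPM in MI and 121486 to 145449 CPM in Sham. Whether the muscle was diaphragm rather than another skeletal muscle was not tested. CPM values here are not divided by transcript length, so they compare libraries for 1 gene and not 1 gene with another.

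None of the 10 mural genes differed between MI and Sham at an adjusted p under 0.05 in the edgeR quasi-likelihood test. Over the whole table that test called 0 of 10522 genes in either direction, or 0% of those tested, and DESeq2 called 0 of the 10 beside 0.099% of 9091 genes higher and 0.055% lower. Rgs5 stood closest, at 135% of its Sham level in MI, while the 4 smooth muscle genes all had estimates below 0. The 10 genes had a median log2 fold change (MI over Sham) of -0.06, against -0.01 over all genes tested, and 6 of the 10 were below 0, where 51.3% of all genes were. At an unadjusted p under 0.05, 1 of the 10 was higher and 0 lower, beside 3.67% and 4.47% of all genes. No member had MI values that all lay on one side of the Sham values, which 2.09% of all genes did upward and 2.46% downward.

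**Figure D1:**
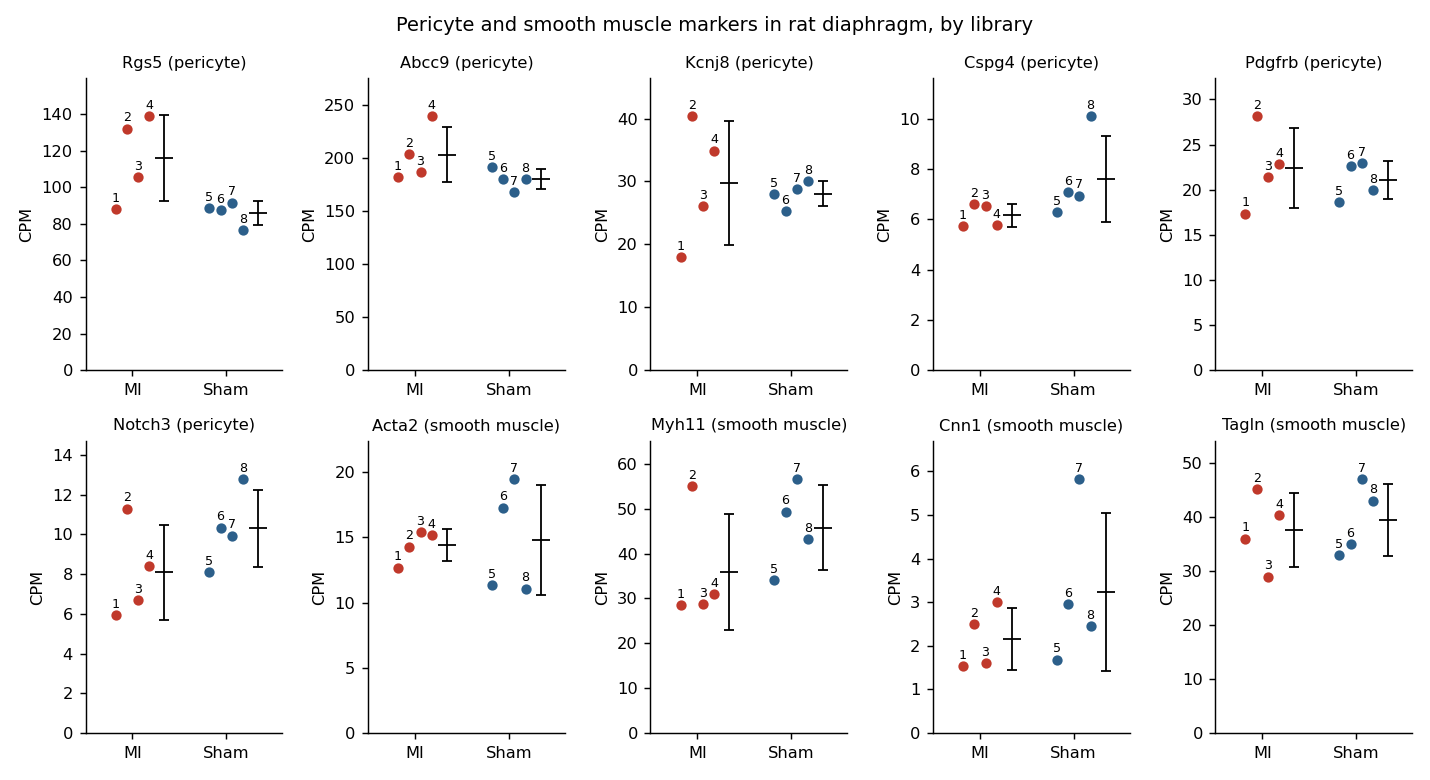
CPM (vertical axis, from 0) of each of the 10 genes in the 4 MI libraries (red) and 4 Sham libraries (blue); points carry animal numbers and black bars show the group mean ± SD. Rgs5 reaches 131.9 and 138.6 CPM in MI animals 2 and 4 against at most 91.5 CPM in Sham, and Cnn1 stands at 5.82 CPM in Sham animal 7.

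Rgs5 encodes a regulator of G-protein signalling that shortens the response to vasoconstrictor receptors, and it is among the most widely used pericyte markers. It was at 88.1, 131.9, 105.5 and 138.6 CPM in MI animals 1 to 4, against 88.5, 87.4, 91.5 and 76.6 CPM in Sham animals 5 to 8. MI animals 2, 3 and 4 lay above every Sham animal, and MI animal 1 lay within the Sham range, so the groups overlapped in that animal alone. The means were 116.0 ± 23.5 CPM in MI and 86.0 ± 6.50 CPM in Sham (SD, n = 4 each), so MI stood at 135% of Sham, with a 95% interval of the fold of 1.09 to 1.66. On the log2 scale this was 0.43 ± 0.13 (SE), which ranked 138 of 10522 genes by edgeR p (unadjusted p = 0.00919, adjusted p = 0.601). DESeq2 gave an adjusted p of 0.304. The spread in MI, a coefficient of variation of 20.2%, was wider than the 7.56% in Sham.

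The upstream regions of Acta2 and Rgs5 are shown, Acta2 because it holds near matches to an element known from smooth muscle genes, and Rgs5 because it stood nearest to the threshold. Both are the 250 bases before the RefSeq gene start in the GRCr8 rat assembly, which is not the rn5 build of the counts, and are written 5′ to 3′ on the gene's strand. In Acta2 (chr1:241172504-241172753, minus strand) capitals mark 2 matches to the CArG box, the site of serum response factor, when 1 of its 6 inner bases may be other than A or T. In Rgs5 (chr13:84380827-84381076, plus strand) capitals mark a GC box, GGGCGG on the opposite strand.
Acta2: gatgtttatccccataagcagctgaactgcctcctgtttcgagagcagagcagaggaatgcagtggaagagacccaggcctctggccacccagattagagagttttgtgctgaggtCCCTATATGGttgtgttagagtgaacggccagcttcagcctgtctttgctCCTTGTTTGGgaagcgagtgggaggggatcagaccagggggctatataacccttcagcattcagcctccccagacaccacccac
Rgs5: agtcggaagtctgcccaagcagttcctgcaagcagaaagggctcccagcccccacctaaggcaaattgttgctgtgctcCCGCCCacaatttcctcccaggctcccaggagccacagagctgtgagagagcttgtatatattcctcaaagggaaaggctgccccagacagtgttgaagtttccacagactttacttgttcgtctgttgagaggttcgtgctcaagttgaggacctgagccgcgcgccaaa

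RefSeq start regions of 300 bases, 250 before and 50 after the start, were at hand for 7 of the 10 genes, 5 pericyte genes (Rgs5, Abcc9, Kcnj8, Cspg4 and Notch3) and 2 smooth muscle genes (Acta2 and Cnn1). An exact CArG box, read on both strands, was in 0 of the 7 and in 1.64% of all 33469 such regions. With 1 inner base free it was in 1 of the 7, Acta2, and in 9.42% of all. The copies in Acta2 began at positions -134 and -84 from the start. GGGCGG on either strand was in all 5 pericyte regions and in 0 of the 2 smooth muscle regions, against 33.1% of all. The 5 pericyte regions had a G and C content of 54.3% to 69% and the 2 smooth muscle regions 56% and 60%, where the median of all was 51.7%. These matches describe letters in a fixed window.

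Abcc9 and Kcnj8 encode the 2 subunit types of the vascular ATP-sensitive potassium channel, the sulfonylurea receptor SUR2 and the pore Kir6.1, whose opening relaxes mural cells. The genes are neighbours in RefSeq's rat gene order. Abcc9 was at 181.9, 204.1, 187.1 and 239.4 CPM in MI, against 191.5, 180.2, 168.4 and 180.6 CPM in Sham. MI animals 2 and 4 lay above all Sham animals and the other MI animals within their range. The log2 fold change was 0.17 ± 0.09 (SE; 95% interval -0.03 to 0.38; edgeR adjusted p = 0.642), and without MI animal 4 it was 0.09.

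Kcnj8 was at 17.96, 40.3, 26.1 and 34.9 CPM in MI, against 28.0, 25.3, 28.8 and 30.0 CPM in Sham. The MI values reached past a narrow Sham range on both sides, with the lowest library in MI animal 1 and the highest in MI animal 2. The coefficient of variation was 33.0% in MI and 7.06% in Sham. The log2 fold change of 0.09 ± 0.21 (edgeR adjusted p = 0.915) had a 95% interval of -0.39 to 0.57, and its sign turned without MI animal 2 (-0.10).

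SUR2 also pairs with the pore Kir6.2, the product of Kcnj11, in the membrane of skeletal muscle fibres, so Abcc9 transcript in a muscle extract need not come from pericytes. Kcnj11 was at 47.8, 57.9, 62.0 and 42.1 CPM in MI, against 58.5, 74.8, 72.1 and 55.0 CPM in Sham, or -0.31 ± 0.14 on the log2 scale (edgeR adjusted p = 0.608). MI animals 1 and 4 lay below every Sham animal. Abcc9 gave 4.01 ± 1.17 reads per Kcnj11 read in MI and 2.83 ± 0.525 in Sham (SD, n = 4 each), and 7.31 ± 2.10 reads per Kcnj8 read in MI and 6.45 ± 0.616 in Sham. Both ratios overlapped between the groups. The remaining subunit of the family, Abcc8, which encodes SUR1 of pancreatic beta cells and neurons, was at 4.23 ± 1.01 CPM in MI and 5.495 ± 1.72 CPM in Sham, with a log2 fold change of -0.38 ± 0.25. It was -0.18 without Sham animal 6.

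Pdgfrb, the receptor for platelet-derived growth factor B, was at 17.4, 28.1, 21.4 and 22.8 CPM in MI, against 18.7, 22.6, 22.9 and 19.9 CPM in Sham. MI animal 1 was the lowest of the 8 libraries, MI animal 2 the highest, and the others lay among the Sham values. The log2 fold change was 0.09 ± 0.15 (95% interval -0.23 to 0.41; edgeR adjusted p = 0.872), with a sign that turned without MI animal 2 (-0.05). Of the 6 PDGF ligands and receptors, 3 were above 0 and 3 below, and the median log2 fold change was 0.00069. An unadjusted p under 0.05 was found for 0 of the 6, beside 8.14% of all genes. Pdgfd, a second ligand of Pdgfrb, was at 6.42 ± 0.222 CPM in MI and 5.65 ± 1.17 CPM in Sham (0.20 ± 0.17; 0.10 without Sham animal 5). Pdgfra, the receptor carried by fibroblasts, was at 24.1 ± 5.58 CPM in MI and 26.1 ± 2.79 CPM in Sham (-0.13 ± 0.15; -0.05 without MI animal 2 and -0.29 without MI animal 4). Pdgfc, a ligand of Pdgfra, had a log2 fold change of -0.10 ± 0.27. Pdgfb, the endothelial ligand, was named after its values were seen and was at 3.18 ± 0.845 CPM in MI and 3.27 ± 0.621 CPM in Sham (-0.04 ± 0.23). The signs for both Pdgfc and Pdgfb depended on which animals were included.

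Cspg4 encodes the NG2 proteoglycan, which marks pericytes and also glial precursors. It was at 5.74, 6.60, 6.51 and 5.76 CPM in MI, against 6.29, 7.07, 6.94 and 10.1 CPM in Sham. All 4 MI values lay below the Sham median, but MI animals 2 and 3 lay above Sham animal 5. On the log2 scale the difference was -0.28 ± 0.17 (95% interval -0.65 to 0.09; edgeR adjusted p = 0.658), and -0.14 without Sham animal 8, the highest and shallowest library.

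Notch3, the Notch receptor of mural cells, is also found in muscle satellite cells. It was at 5.94, 11.3, 6.68 and 8.41 CPM in MI, against 8.12, 10.4, 9.95 and 12.8 CPM in Sham. MI animals 1 and 3 were below every Sham animal and MI animal 2 was above all but Sham animal 8. Its log2 fold change was -0.34 ± 0.21 (95% interval -0.80 to 0.13; edgeR adjusted p = 0.676). Without MI animal 2 it was -0.56, with an unadjusted p of 0.0153 and an adjusted p of 0.452, and without MI animal 1 it was -0.21. The 6 listed satellite cell markers, with Notch3 among them, summed to 54.6 to 75.3 CPM in MI and 69.1 to 81.5 CPM in Sham, and 4 of the 6 had estimates below 0; the part of those cells in the Notch3 value was not tested.

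Among 16 tested Notch ligands, receptors and targets, 12 had estimates below 0, where 51.3% of all genes did, around a list median of -0.10 (log2). At an unadjusted p under 0.05, 2 were lower and 0 higher, beside 4.47% and 3.67% of all genes. None passed over all genes. Notch1, the receptor of endothelial and many other cells, was at 22.6, 21.0, 19.8 and 18.8 CPM in MI, against 23.9, 25.6, 24.98 and 24.7 CPM in Sham. Every MI animal was below every Sham animal, as for 2.46% of all genes, and the difference was -0.27 ± 0.09 on the log2 scale (edgeR adjusted p = 0.601). Dll1, a Notch ligand, was at 2.83 ± 0.553 CPM in MI and 4.03 ± 0.663 CPM in Sham (-0.47 ± 0.21; edgeR adjusted p = 0.607). Heyl, a target of Notch3 in mural cells, was at 32.1 ± 5.38 CPM in MI and 36.2 ± 6.27 CPM in Sham (-0.17 ± 0.15; edgeR adjusted p = 0.751), or -0.08 without Sham animal 7.

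The smooth muscle genes encode parts of the contractile apparatus. Myh11, the smooth muscle myosin heavy chain, was at 28.5, 55.1, 28.7 and 31.0 CPM in MI, against 34.1, 49.4, 56.6 and 43.2 CPM in Sham. MI animals 1, 3 and 4 lay close together and below all Sham animals, and MI animal 2 lay near the top of the Sham range. The log2 fold change was -0.35 ± 0.24 (95% interval -0.90 to 0.19; edgeR adjusted p = 0.698). It was -0.65 without MI animal 2, with an unadjusted p of 0.00232 and an adjusted p of 0.452, and -0.24 without Sham animal 7.

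Cnn1 encodes calponin, which binds actin and damps the myosin motor in differentiated smooth muscle. It was at 1.54, 2.51, 1.61 and 3.00 CPM in MI, against 1.68, 2.96, 5.82 and 2.46 CPM in Sham. Sham animal 7 stood at 2.46 times the mean of the other Sham animals, and the remaining 7 libraries lay between 1.54 and 3.00 CPM. The log2 fold change of -0.64 ± 0.39 (95% interval -1.50 to 0.21; edgeR adjusted p = 0.661) was -0.16 without that animal. Without Sham animal 5 it was -0.87, with an unadjusted p of 0.0357 and an adjusted p of 0.524.

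Acta2, the smooth muscle alpha-actin of arterioles and of myofibroblasts, was at 12.7, 14.3, 15.4 and 15.2 CPM in MI, against 11.3, 17.3, 19.5 and 11.1 CPM in Sham. All MI values fell inside the Sham range, with a coefficient of variation of 8.61% in MI and 28.7% in Sham. Its log2 fold change was -0.06 ± 0.19 (95% interval -0.47 to 0.35; edgeR adjusted p = 0.940), and its sign turned without Sham animal 7 (0.10). Tagln, an actin-binding protein also called SM22 alpha, was at 36.0, 45.2, 28.9 and 40.3 CPM in MI, against 32.9, 34.9, 47.0 and 43.0 CPM in Sham. Its groups also overlapped widely, with a log2 fold change of -0.07 ± 0.15 (95% interval -0.41 to 0.27; edgeR adjusted p = 0.909) that turned to 0.02 without Sham animal 7.

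Acta2 is a near copy of Acta1, the actin of skeletal fibres, and the counting could have moved reads between them. Acta1 was at 44646 ± 3842 CPM in MI and 47270 ± 4981 CPM in Sham. There were 3106 ± 187 Acta1 reads per Acta2 read in MI and 3417 ± 1057 in Sham, where the ratio ran from 2118 in animal 7 to 4501 in animal 8. The other actins overlapped between the groups. Actg2, the gamma-actin of visceral smooth muscle, was at 1.73 ± 0.472 CPM in MI and 3.12 ± 1.75 CPM in Sham, with 5.55 CPM in Sham animal 7, and -0.91 ± 0.39 on the log2 scale (edgeR unadjusted p = 0.0411, adjusted p = 0.601). It was -0.42 without that animal. Actb, the cytoplasmic beta-actin, had a log2 fold change of 0.11 ± 0.11 (0.02 without MI animal 4), and the cardiac actin Actc1 had one of 0.64 ± 0.93 (-0.29 without MI animal 2), with 455.0 CPM in MI animal 2 and at most 136.8 CPM in the other MI animals.

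Of 23 tested further genes of smooth muscle structure and control, 8 had estimates above 0 and 15 below, where 51.3% of all genes were below. Their median was -0.07 (log2). At an unadjusted p under 0.05, 1 was higher and 1, Actg2, lower, beside 3.67% and 4.47% of all genes. The higher one was Ednra, the endothelin receptor of smooth muscle, at 12.8 ± 3.17 CPM in MI and 9.54 ± 1.63 CPM in Sham (0.41 ± 0.19; edgeR adjusted p = 0.608; 0.25 without MI animal 4). Agtr1a, the angiotensin II receptor, was at 24.7 ± 10.4 CPM in MI and 36.3 ± 10.1 CPM in Sham (-0.55 ± 0.32; -0.34 without MI animal 2). Flna, which crosslinks actin in many cells, was at 41.8 ± 4.80 CPM in MI and 48.6 ± 8.02 CPM in Sham (-0.21 ± 0.13; -0.14 without Sham animal 8 and -0.33 without Sham animal 5). Muscle fibres themselves transcribe Tpm1, Tpm2, Synpo2 and other members of this list, which sums to 15127 to 21471 CPM in MI and 17416 to 21701 CPM in Sham.

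In a wider list of pericyte markers most estimates were above 0, though none passed the adjusted threshold. This list, like the others, was chosen with earlier results of these data known. Of its 18 genes, Cd248, Trpc6 and Kcnk3 had too few counts to be tested. Among the other 15, 13 had a log2 fold change above 0 and 2 below, where 51.3% of all genes were below. The list median was 0.30 against -0.01 over all genes. At an unadjusted p under 0.05, 3 were higher and 0 lower, where 3.67% of all genes were higher. The same 3, Gucy1a3, Steap4 and Vtn, had MI values that lay entirely above the Sham values, which 2.09% of all genes did. The smallest adjusted p over all genes was 0.601 in edgeR and 0.193 in DESeq2. Without MI animal 4 the median was 0.20. The 2 tested genes below 0, Art3 and Mcam, were named after their values were seen, as was Gucy1b3.

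**Figure D2:**
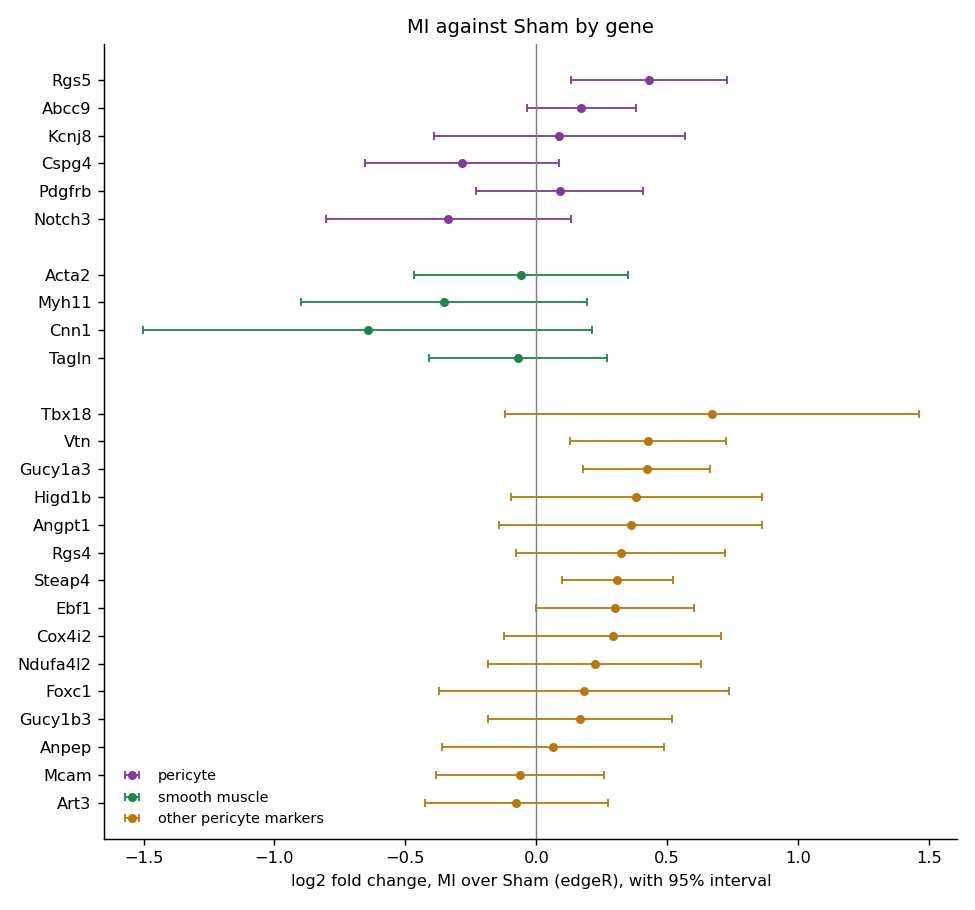
Log2 fold change of MI over Sham from edgeR (horizontal axis) with its 95% interval for the 6 pericyte genes, the 4 smooth muscle genes and the 15 tested genes of the wider pericyte list. Intervals that exclude 0 before adjustment belong to Rgs5, Vtn, Gucy1a3 and Steap4, and the 4 smooth muscle estimates all lie left of 0.

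Gucy1a3 encodes a subunit of soluble guanylate cyclase, the nitric oxide receptor that relaxes mural cells. It was at 18.5, 24.3, 20.5 and 22.8 CPM in MI, against 15.2, 15.8, 16.2 and 17.0 CPM in Sham, or 0.42 ± 0.11 on the log2 scale (edgeR unadjusted p = 0.00283, adjusted p = 0.601). The lowest MI animal stood above the highest Sham animal. Gucy1b3, which encodes the partner subunit, was at 15.4 ± 2.99 CPM in MI and 13.7 ± 2.06 CPM in Sham (0.17 ± 0.16), and its groups overlapped.

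Steap4, a metalloreductase of pericytes and of adipose cells, was at 100.1, 97.6, 102.0 and 126.5 CPM in MI, against 81.6, 93.7, 86.1 and 82.1 CPM in Sham (0.31 ± 0.10; edgeR adjusted p = 0.601). Vtn, vitronectin, an adhesive matrix protein, was at 46.7, 75.4, 52.3 and 61.6 CPM in MI, against 46.2, 44.9, 43.3 and 41.3 CPM in Sham (0.43 ± 0.14; edgeR adjusted p = 0.601; 0.28 without MI animal 2). For Vtn the separation was a near tie between MI animal 1 and Sham animal 5. Ebf1, a transcription factor of mural, fat and B-lineage cells, was at 15.3, 20.3, 17.4 and 23.3 CPM in MI, against 15.5, 16.8, 15.3 and 14.0 CPM in Sham (0.30 ± 0.14; edgeR adjusted p = 0.608), and without MI animal 4 it was 0.20.

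The 11 tested genes of the list not named by the smallest p values had log2 fold changes of -0.08 to 0.67, and 9 of them were above 0.

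MI animal 1 was the lowest MI animal for each of the 6 pericyte genes, while the order of the other MI animals varied. It was the lowest of the 8 libraries for Kcnj8, Cspg4, Pdgfrb and Notch3, and also for the smooth muscle genes Myh11 and Cnn1. For Cspg4, MI animal 4 was nearly as low. As a mean over the 6 pericyte genes, the level was 4.57, 5.19, 4.82 and 5.05 log2 CPM in MI animals 1 to 4, against 4.81, 4.89, 4.91 and 5.01 log2 CPM in Sham animals 5 to 8. The group means were 4.91 ± 0.27 in MI and 4.90 ± 0.08 in Sham, so the means lay within 0.01 of each other while the MI values spread more widely. This mean weighs the 6 genes alike, and 4 of them had estimates above 0 and 2 below. Their summed level, to which Abcc9 contributed most, was 316.9, 422.4, 353.2 and 449.9 CPM in MI. In Sham it was 341.1, 333.0, 328.5 and 330.0 CPM. By that sum MI animals 2, 3 and 4 lay above every Sham animal and MI animal 1 below. The mean of the wider pericyte list was 4.04, 4.25, 4.10 and 4.40 log2 CPM in MI, against 4.00, 3.93, 3.93 and 3.95 log2 CPM in Sham, without overlap. The gap between MI animal 1 and Sham animal 5 was narrow. The summed level of the wider list did overlap, at 554.4 to 705.3 CPM in MI and 552.7 to 611.3 CPM in Sham. Art3, which had an estimate below 0, contributed most to that sum, at 209.4 to 353.4 CPM in MI and 234.2 to 311.3 CPM in Sham.

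Markers of other cells differed between the same libraries, and their part in the results was not tested. Within MI the blood endothelial list had the same order of animals as the mean of the 6 pericyte genes. It was at 4.85, 5.40, 4.97 and 5.28 log2 CPM in MI, against 5.13, 5.25, 5.29 and 5.04 log2 CPM in Sham. Of its 12 tested genes, 6 were above 0, around a median of -0.02 (log2), with a summed level of 377.4 to 541.9 CPM in MI and 427.4 to 493.6 CPM in Sham. Emcn, an endothelial sialomucin, was its only gene with an unadjusted p under 0.05, which 8.14% of all genes had. Emcn was at 50.02 ± 8.14 CPM in MI and 40.4 ± 3.11 CPM in Sham (0.30 ± 0.12, edgeR adjusted p = 0.601, and 0.19 without MI animal 4). Fibroblast markers had 6 of 10 tested genes above 0 and 3 with an unadjusted p under 0.05, all higher, beside 3.67% of all genes. Their sum was 2024 to 3599 CPM in MI, highest in MI animal 4, and 1917 to 2640 CPM in Sham. Fap and Lum, named by smallest p, had log2 fold changes of 0.47 ± 0.16 and 0.76 ± 0.26 (edgeR adjusted p = 0.601 for each). Other genes of that list were named after their values were seen. Among them Postn was at 0.25 ± 0.36, Col1a1 at 0.14 ± 0.40, Col3a1 at -0.0046 ± 0.26 and Pi16 at -0.42 ± 0.23. In all, 4 of the 10 fibroblast genes had estimates below 0. Schwann cell markers had 5 of 6 tested genes above 0 and a sum of 129.5 to 168.8 CPM in MI against 99.4 to 136.6 CPM in Sham. An unadjusted p under 0.05 was found for 2 of the 6, both higher, beside 3.67% of all genes. The Schwann list mean was 3.37, 3.75, 3.40 and 3.65 log2 CPM in MI, against 3.03, 3.33, 2.42 and 3.12 log2 CPM in Sham. It also separated the groups, by a difference of 0.57 where the wider pericyte list had 0.24. Arterial endothelial markers summed to 78.8 to 97.6 CPM in MI and 71.6 to 87.5 CPM in Sham. Markers of the mesothelium that covers the muscle summed to 55.6 to 263.0 CPM in MI, lowest in MI animal 2, and to 150.7 to 344.7 CPM in Sham.

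**Figure D3:**
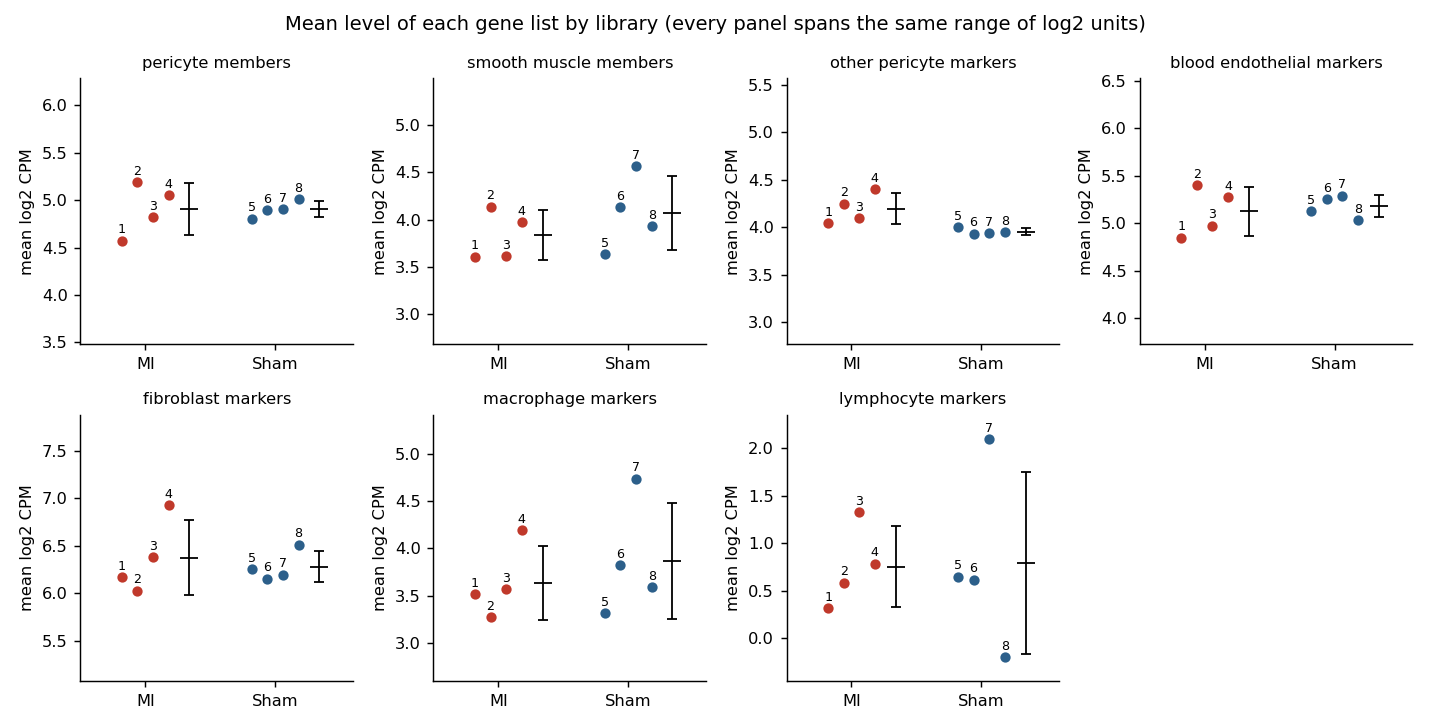
Mean log2 CPM (vertical axis) over the tested genes of 7 lists in the MI (red) and Sham (blue) libraries; points carry animal numbers, black bars show mean ± SD, and every panel spans the same range. The mean of the wider pericyte list separates the groups, though its summed CPM, to which Art3 contributed most, overlapped. The mean of the Schwann cell list, not plotted, separated them too. MI animals 1 and 2 mark the ends of the pericyte panel, and Sham animal 7 tops the smooth muscle, macrophage and lymphocyte panels.

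Sham animal 7 had the highest level of each of the 4 smooth muscle genes. The mean over the 4 genes was 3.61, 4.14, 3.62 and 3.97 log2 CPM in MI, against 3.63, 4.13, 4.56 and 3.93 log2 CPM in Sham, with means of 3.83 ± 0.26 in MI and 4.06 ± 0.39 in Sham. The difference of -0.23 was -0.07 without that animal. Its level was 1.47 times the mean of the other Sham animals for Acta2, 1.34 times for Myh11, 2.46 times for Cnn1 and 1.27 times for Tagln, but 0.888 to 1.12 times for the 6 pericyte genes. The macrophage list summed to 358.5 CPM in that library and to 130.9 to 270.3 CPM in MI and 144.2 to 193.9 CPM in the other Sham libraries. The lymphocyte list summed to 36.5 CPM there, against 7.28 to 13.6 CPM in MI and 7.17 to 9.71 CPM in the other Sham libraries, and 5 of its 8 genes had too few counts to be tested. The macrophage receptor gene Cd163 was at 20.6 CPM there, 5.58 to 8.87 CPM in MI and 7.32 to 10.03 CPM in the other Sham libraries. The part of these cells in the smooth muscle values was not tested.

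Per Rgs5 read in the same library, the mean reads of all 8 other members examined were lower in MI. The ratio of Abcc9 to Rgs5 was not computed. This is a description with no test because the ratio was formed after Rgs5 was seen to be high. Cspg4 gave 0.0546 ± 0.0109 reads per Rgs5 read in MI and 0.0899 ± 0.0281 in Sham, and Notch3 gave 0.0693 ± 0.0113 in MI and 0.121 ± 0.0323 in Sham, both without overlap between groups. Pdgfrb gave 0.194 ± 0.0209 reads in MI and 0.245 ± 0.0233 in Sham, with MI animal 2 just above Sham animal 5. Kcnj8 gave 0.252 ± 0.0417 reads in MI and 0.328 ± 0.0440 in Sham, with 1 MI animal above the lowest Sham animal. Myh11 gave 0.309 ± 0.0831 reads in MI and 0.533 ± 0.102 in Sham, where MI animal 2 again lay above Sham animal 5. These ratios do not depend on library size or scaling, and all share the Rgs5 denominator, so a high Rgs5 in MI lowers each of them. The share of all genes whose ratio to Rgs5 does not overlap was not computed.

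**Figure D4:**
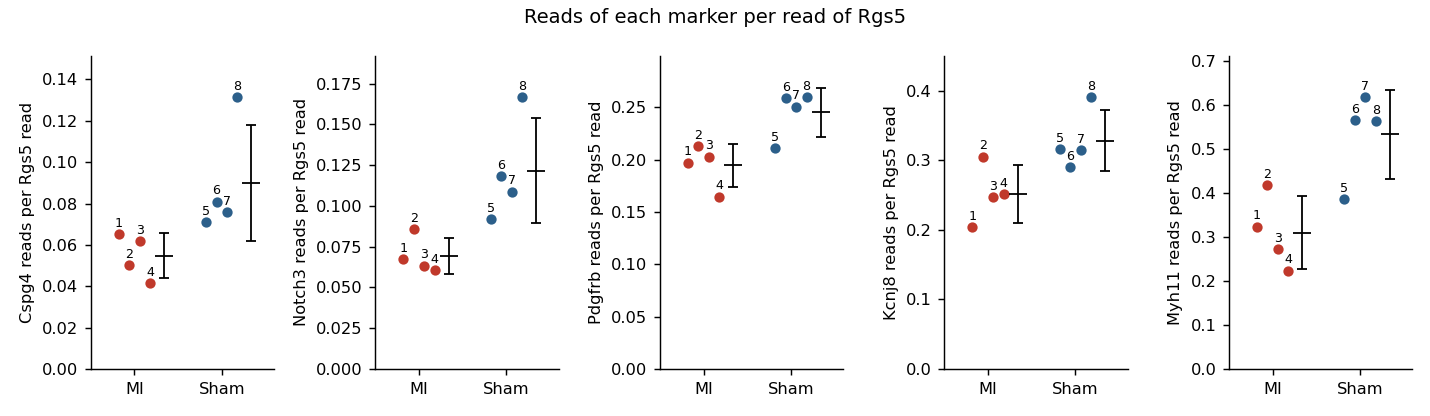
Reads of 5 markers per read of Rgs5 in the same library (vertical axes, from 0) in MI (red) and Sham (blue); points carry animal numbers and black bars show mean ± SD. The Cspg4 and Notch3 ratios of all 4 MI animals lie below those of all 4 Sham animals. Rgs5, the shared denominator, was chosen after it was seen to be high in MI, which lowers every ratio.

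Genes with the most similar pattern over the 8 libraries were sought among 6619 other genes with a mean of at least 10 CPM, using Pearson's r of log2 CPM as the measure of likeness. For the mean of the 6 pericyte genes they were Slc26a10 (r = 0.947), Hmgcs1 (0.924), Mettl25 (0.922), Cyld (0.913) and LOC684352 (0.907), where the median of all genes was -0.026 and the 99th percentile 0.788. Without Sham animal 7 these 5 had r of 0.913 to 0.948 and ranked 2, 11, 8, 12 and 6, so Slc26a10 alone stayed among the first 5. That animal lay near the middle of the pericyte mean, at 4.91 log2 CPM. Its removal therefore says little about how r depends on the animals at the ends. Those were MI animals 1 and 2 (4.57 and 5.19 log2 CPM), and they were not left out in this search. For the mean of the 4 smooth muscle genes the most alike were Brms1l (r = 0.928), Myo5a (0.919), Osgin1 (0.894), Elmo1 (0.888) and Cdipt (0.887). The median was -0.049 and the 99th percentile 0.755 over all genes. Without Sham animal 7 these 5 had r of 0.806 to 0.910 and ranked 9, 57, 35, 11 and 41, so none stayed among the first 5, which were then Uhrf1bp1l, Armcx3, Pdlim1, Bex1 and Csrp3. With 8 libraries and 6619 genes such values are a ranking only, one that changed with 1 library, and the libraries share their depth and cell makeup with every gene compared.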

How the data were processed

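Diaphragm RNA was isolated with TRI Reagent and made into libraries with SMARTer Ultra Low and KAPA Hyper reagents, per the labels' protocols. The authors deposited whole read counts per gene symbol, not normalized, 1 column per animal. The submitters' processing notes list STAR 2.5.0a, TopHat2, TopHat, Cufflinks, bcl2fastq and the build rn5; neither the counter nor its treatment of reads shared by near copies is stated. Rows whose symbols a spreadsheet had turned into dates held 0.109% of the counts.

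One fit covered all 8 libraries. Genes kept by filterByExpr (10522) were scaled by TMM and tested with the quasi-likelihood method of edgeR 4.0.16 (R 4.3.3) with robust dispersions; p-values are two-sided and adjusted over all tested genes by the Benjamini-Hochberg method at 0.05. CPM use TMM-scaled totals. List levels are means of log2 CPM with a prior count of 2. The SE is the absolute log2 fold change over the root of F. The procedure was tested on simulated data. The labels name no batch, pairing or litter. Animal numbers fall in 2 ranges, and Sham animal 5 is the only Sham animal in the earlier one.

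The 10 genes and all other lists were chosen with earlier results of these data known. Besides the 10, named genes are up to 4 per related list and up to 2 per cell type list by smallest p, Kcnj11, Acta1 and the 5 most alike per mean; others are said to be named after their values were seen. One gene that this rule names is not reported here. Lists were searched by symbol. Alternatives were RLE or total scaling, no filter and a 1 CPM filter in 4 libraries. Other tests were DESeq2 1.42.0, limma-voom 3.58.1 with or without sample weights, and edgeR without robust dispersions. Further settings were a threshold of 0.1, a term for the number range, 1 surrogate variable (sva 3.50.0), thinned counts and each library left out. For means they included a prior count of 0.5 and the later number range alone.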

Additional observations from a re-analysis of the deposited data

Results flagged for a closer look

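The Myh11 level of MI animal 2, 55.1 CPM, stood apart from the 28.5 to 31.0 CPM of the other MI animals. Its gap to the nearest of them was 0.907 of the whole range of the group, above Dixon's critical value of 0.829 for 4 samples. It was the 1 case among 24 groups checked, where chance alone gives about 1 in 20. Without that animal the log2 fold change of Myh11 was -0.65 in place of -0.35.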

How the results depend on the processing

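None of the 10 genes passed the adjusted threshold under any of 20 alternatives, and Rgs5 had an unadjusted p under 0.05 in each, with log2 fold changes of 0.33 to 0.54 and adjusted p of 0.304 to 0.867. Over the table DESeq2 called 9 genes higher and 5 lower, no member among them, and leaving out a library gave 0 to 1 higher and 0 lower. Leaving out a library gave 1 to 2 members higher (Abcc9 joined without MI animal 1) and 0 to 2 lower (Myh11 and Notch3 without MI animal 2, Cnn1 without Sham animal 5) at an unadjusted p under 0.05. Genes of related lists at that level were 4 higher and 4 lower, beside 3.67% and 4.47% of all genes. These lists had 15 (wider pericyte), 23 (smooth muscle), 6 (PDGF), 16 (Notch), 4 (potassium channel) and 6 (actin) tested genes. Some are shared between lists, and some are members, which the counts leave out. The lower ones were 2 with RLE scaling, with limma-voom, with weighted limma-voom and with the number range as a term. Leaving out a library gave 3 to 7 higher and 2 to 5 lower. Of the wider pericyte list it gave 3 to 6 higher, the most without MI animal 1, and medians of 0.197 to 0.338.

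The pericyte mean difference of 0.0053 was -0.0022 with library totals alone, -2.8e-05 in the later number range alone, and -0.092 to 0.112 with a library left out, negative without MI animal 2, MI animal 4 (-0.043) or Sham animal 5 (-0.035). The smooth muscle mean difference of -0.23 stayed below 0 in all 13 alternatives, at -0.41 to -0.071. With the number range as a term, Acta2 was 0.038 and Pdgfb 0.044, and Acta2 was 0.022 in thinned counts. Leaving out a library gave log2 fold changes of -0.10 to 0.27 for Kcnj8, -0.047 to 0.19 for Pdgfrb, -0.17 to 0.10 for Acta2, -0.18 to 0.042 for Tagln, -0.27 to 0.13 for Pdgfc, -0.21 to 0.0998 for Pdgfb and -0.29 to 1.43 for Actc1. The causes of these changes were not tested. No paired analysis was possible because the MI animals (1 to 4) and Sham animals (5 to 8) share no numbers. Cnn1 rested on 19 to 151 counts a library and Cspg4 on 50 to 180.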
